A study of Homo sapiens with 4 samples.

Results

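The genes described here are 10 cadherins that encode classical (type I) cadherins, type II cadherins and the related T-cadherin: CDH1, CDH2, CDH3, CDH4, CDH6, CDH10, CDH11, CDH12, CDH13 and CDH24. They were taken by gene symbol from the 29387 genes listed in all 4 libraries of the study. The cells were U87MG, an established human glioblastoma line, kept for 1 week on organotypic brain slices (living brain sections in culture) in medium for neural stem cells that contained FGF and EGF. Populations that had invaded the slice (invasive 1 and 2) and poorly invasive populations (control 1 and 2) were then isolated and expanded for 3 to 5 days before RNA extraction, and each gave 1 polyadenylated RNA library. Control 1 is the control of invasive 1 (pair 1) and control 2 that of invasive 2 (pair 2). All 4 derive from the same parental line. The labels call the invasive populations clones but do not say that each grew from 1 cell, and no source says how many slices or dishes a population came from. The sources used here do not name the species of the slices.

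Classical cadherins are calcium-dependent adhesion receptors. Their extracellular repeats bind cadherins on the neighbouring cell, and their cytoplasmic tails bind p120 and beta catenin, which link through alpha catenin to actin. Type II cadherins share this layout but differ in the adhesive pocket of the outermost repeat. T-cadherin, the product of CDH13, is held by a glycolipid anchor and has no catenin-binding tail, so it belongs to neither class in the strict sense. In glial and neural tissue N-cadherin (CDH2) is the main classical cadherin, and loss of E-cadherin (CDH1) with gain of N-cadherin is widely used as a mark of epithelial to mesenchymal change.

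Library totals were 13829871 to 17817756 counts. Levels are in CPM, counts per 1000000 counts. For a gene with no count the bound set by 3 counts was 0.168 to 0.217 CPM, which covers counting error only. Of the glioma genes examined, VIM (113467 to 145137 counts) and CD44 (24032 to 38230) were abundant and NES had 217 to 739, while GFAP had 2 to 4 and SOX2 0 or 1. Among 14231 genes tested, 653 differed at least 2-fold between the controls and 512 between the invasive populations, against 588 within pair 1 and 912 within pair 2. By this count the controls were farther apart than the libraries of pair 1, so values are given below for every library.

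Of the 10 cadherins, 8 had at least 1 count and 6 passed the filter on low counts: CDH2, CDH3, CDH4, CDH11, CDH13 and CDH24. Higher levels in both invasive populations were seen for CDH24, CDH3 and CDH2, and lower levels for CDH11, each with no overlap between the groups. Only for CDH24 did the nearest libraries of the groups differ beyond counting error (27.9 CPM in control 1, 36.2 in invasive 2). The nearest values were 87.2 (control 1) and 91.7 CPM (invasive 1) for CDH2, and 2.30 (control 1) and 2.39 (invasive 2) for CDH3. For CDH11 they were 4.27 (control 2) and 3.94 CPM (invasive 1). The quasi-likelihood test of edgeR, blocked on pair, called 0 of the 6 at an adjusted p under 0.05. Of all genes tested it called 0.274%, with 0.239% higher and 0.0351% lower. At an unadjusted p under 0.05, 4 of the 6 differed (CDH3 and CDH24 higher, CDH11 and CDH13 lower), beside 9.82% of all genes higher and 8.41% lower. DESeq2 with the same block called 1, CDH24, beside 1.22% of the 12785 genes it gave an adjusted p. Both invasive libraries were above both controls for 3 of the 6, beside 23.7% of all genes, and below both for 1, beside 19.7%, so a lack of overlap was common in these libraries. Members that passed the filter are not all members. Gene totals in bulk RNA do not tell fewer expressing cells from less RNA per cell.

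**Figure D1:**
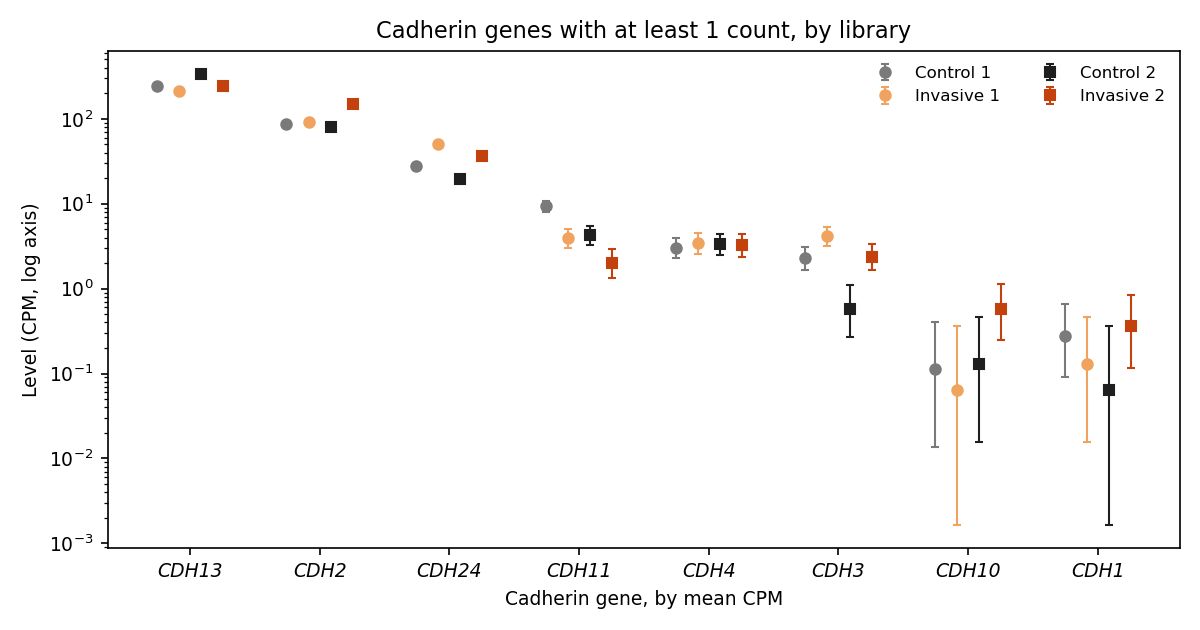
Levels of the 8 cadherin genes with at least 1 count, in CPM on a log axis, with a point per library and 95% exact Poisson intervals that cover counting error only. CDH13 lies between 215 and 334 CPM in the 4 libraries and CDH24 is higher in both invasive libraries, while CDH1 and CDH10 stay under 1 CPM.

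Among the type I cadherins, CDH2 (ENSG00000170558) was the most abundant. It lies on chromosome 18 from 27950966 to 28177446 (GRCh38, minus strand). Its level in pair 1 was 87.2 CPM (control) and 91.7 CPM (invasive), and in pair 2 it was 81.0 and 148 CPM. Invasive 2 stood above the other 3 libraries, and the difference in pair 1 was within counting error. The ratio of invasive to control was 1.05 in pair 1 (95% exact binomial interval 0.977 to 1.13) and 1.83 in pair 2 (1.70 to 1.96). These intervals cover counting error only. With 1 library per group in each pair, the difference between the pairs could not be tested. Over both pairs the log2 fold change was 0.45 ± 0.22 (SE, adjusted p = 0.374). In a fit without invasive 2 and without the pair block, it was 0.10.

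The RefSeq table of start regions (GRCh38.p14, 250 bases before to 50 after a start) held entries for 4 of the 10 genes, CDH2, CDH4, CDH10 and CDH12. The first CDH2 entry and those of CDH10 and CDH12 are printed because they set the start region of an abundant member beside those of members at or near 0 counts. Capitals mark CG dinucleotides, which cluster in the CpG island promoters of many widely expressed genes. The strand shown is that of the gene, minus for all 3.
CDH2, chr18:28177081-28177380: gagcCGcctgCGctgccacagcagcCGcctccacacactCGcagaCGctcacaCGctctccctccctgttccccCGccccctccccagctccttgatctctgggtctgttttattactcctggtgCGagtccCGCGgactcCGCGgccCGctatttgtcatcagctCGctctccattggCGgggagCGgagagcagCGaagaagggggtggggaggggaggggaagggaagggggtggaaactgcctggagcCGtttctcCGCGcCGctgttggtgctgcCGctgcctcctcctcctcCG
CDH10, chr5:24644929-24645228: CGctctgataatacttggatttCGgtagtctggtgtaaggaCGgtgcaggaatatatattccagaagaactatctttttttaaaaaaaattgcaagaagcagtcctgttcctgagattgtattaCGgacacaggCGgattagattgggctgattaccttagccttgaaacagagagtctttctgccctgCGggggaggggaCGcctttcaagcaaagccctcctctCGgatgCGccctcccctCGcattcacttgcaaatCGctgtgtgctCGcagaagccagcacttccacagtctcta
CDH12, chr5:22853295-22853594: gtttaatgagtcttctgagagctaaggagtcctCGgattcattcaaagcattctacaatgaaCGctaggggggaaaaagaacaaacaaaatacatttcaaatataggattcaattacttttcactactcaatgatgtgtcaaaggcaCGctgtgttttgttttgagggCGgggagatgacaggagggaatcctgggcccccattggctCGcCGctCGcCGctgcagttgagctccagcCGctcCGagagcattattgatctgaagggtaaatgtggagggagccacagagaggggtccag
The CDH2 window held 23 CG dinucleotides, the CDH10 window 12 and this CDH12 window 10, and the median over 35116 windows of this length was 14. As many as 23 occurred in 35.8% of windows, at least 12 in 53.1% and at least 10 in 56.4%. CDH2 has a second listed start, 28036592 to 28036891, with 4, and the other CDH12 windows held 13 and 1. The windows of CDH4, a tested member, held 9 and 14. Both lie inside the gene, from 61499171 and from 61599511, and its annotated start at 61252426 had no entry. The printed CDH2 and CDH12 windows also lie inside their genes and do not reach the annotated starts, at 28177446 and 22853622. The CDH10 window holds its annotated start, at 24644978. Gene counts do not say which start was used, and the letters are a description of these windows only.

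CDH3 (ENSG00000062038), P-cadherin of placenta and basal epithelia, lies on chromosome 16 from 68636189 to 68722616, next to CDH1 with a gap of 14608 bases. It had 41 counts in control 1 (2.30 CPM), 64 in invasive 1 (4.14 CPM), 9 in control 2 (0.583 CPM) and 33 in invasive 2 (2.39 CPM). Both invasive populations were above their own control, but invasive 2 and control 1 nearly coincided. The ratio was 1.80 in pair 1 (95% interval 1.20 to 2.73) and 4.09 in pair 2 (1.92 to 9.73). The log2 fold change was 1.25 ± 0.38 (unadjusted p = 0.0156, adjusted p = 0.186), the largest among the 6. In fits without the pair block, the fold change was 0.47 without control 2 and 2.46 without control 1. Both values lie outside the log2 differences within pairs 1 and 2, which were 0.81 and 1.82.

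CDH4, R-cadherin of retina and brain, did not separate the groups. It had 3.03 CPM in control 1 and 3.43 CPM in invasive 1, with 3.37 and 3.25 CPM in pair 2, from 45 to 54 counts per library. The log2 fold change was 0.05 ± 0.27 (adjusted p = 0.945), so at this depth no difference was detectable. CDH1, E-cadherin of epithelia, had 5 counts in control 1 against 2 in invasive 1, and 1 in control 2 against 5 in invasive 2. Its highest level was 0.362 CPM, with an upper bound of 0.844, and it was not tested. E-cadherin RNA was therefore near the detection limit in controls and invasive populations alike, and no direction can be read from it.

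Among the type II cadherins, CDH24 (ENSG00000139880; chromosome 14, 23047062 to 23057538, minus strand), a catenin-binding member, was the most abundant. It had 497 counts in control 1 (27.9 CPM), 788 in invasive 1 (50.9 CPM), 304 in control 2 (19.7 CPM) and 500 in invasive 2 (36.2 CPM). The lower of the invasive libraries lay above the higher of the controls. The ratio was nearly the same in the pairs, 1.83 in pair 1 (95% interval 1.63 to 2.05) and 1.84 in pair 2 (1.59 to 2.13). CDH24 was also lower in both libraries of pair 2 than in the library of the same group in pair 1. The log2 fold change was 0.85 ± 0.11, with the smallest p of the members (unadjusted p = 0.000201) and an adjusted p = 0.0597, just short of the threshold. It passed in DESeq2 (adjusted p = 0.0263) and in edgeR with RLE size factors, the scaling DESeq2 uses (0.0362), and had an adjusted p = 0.309 with no replicate block. Over all 8 alternatives the adjusted p ranged from 1.24e-07 to 0.667. The group means were 23.8 ± 5.80 CPM in controls and 43.6 ± 10.5 in invasive populations (SD, n = 2 per group).

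CDH11 (ENSG00000140937; chromosome 16, 64943753 to 65126112, minus strand), the OB-cadherin of osteoblasts and mesenchyme, had the opposite pattern. It had 166 counts in control 1 (9.32 CPM), 61 in invasive 1 (3.94 CPM), 66 in control 2 (4.27 CPM) and 28 in invasive 2 (2.02 CPM). Each invasive population was below its control, and the lower control was only just above the higher invasive population. The ratio was 0.423 in pair 1 (95% interval 0.310 to 0.571) and 0.474 in pair 2 (0.293 to 0.748). CDH11 was the single tested member at least 2-fold lower in either pair, and it was so in both, beside 0.899% of genes in pair 1 and 2.05% in pair 2. In the other direction 0 members reached 2-fold in pair 1, beside 3.23% of genes, and CDH3 did so in pair 2, beside 4.36%. The log2 fold change was −1.19 ± 0.24 (unadjusted p = 0.00226, adjusted p = 0.107). In fits without the pair block it was −0.52 without control 1 and −1.78 without invasive 1. Within pairs 1 and 2 the log2 differences were −1.21 and −1.03. The controls themselves differed by a log2 value of −1.10 (control 2 minus control 1), about as much as the invasive populations differed from them.

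The remaining type II genes were at or near 0. CDH6 (K-cadherin of kidney) and CDH12, a brain type II cadherin, had 0 counts in all 4 libraries, which allows up to 0.217 CPM in the shallowest. CDH10, another brain type II cadherin, had 2 counts in each control, 1 in invasive 1 and 8 in invasive 2. These 3 genes lie on the same chromosome, 5, as does CDH18 below. The invasive 2 level of CDH10, 0.578 CPM, had a Poisson interval of 0.250 to 1.14 that overlapped those of the other libraries.

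CDH13 (ENSG00000140945; chromosome 16, 82626803 to 83800640), the glycolipid-anchored T-cadherin of vessel walls and neurons, had the highest count of all members. Its level was 242 CPM in control 1 against 215 CPM in invasive 1, and 334 CPM in control 2 against 246 CPM in invasive 2. Each invasive population was below its own control, but the groups overlapped because invasive 2 was above control 1. The ratio was 0.890 in pair 1 (95% interval 0.850 to 0.931) and 0.737 in pair 2 (0.705 to 0.769). With 3330 to 5155 counts per library, counting error was small beside the spread between libraries. The log2 fold change was −0.32 ± 0.11 (unadjusted p = 0.0223, adjusted p = 0.210). In a fit without control 2 and without the pair block, it was −0.10. Within pairs 1 and 2 the log2 differences were −0.17 and −0.44. In GENCODE 29, exons of CDH1, CDH2, CDH3 and CDH13 overlap an antisense gene by 136 to 694 bases. The sources used here do not say whether reads were counted by strand.

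**Figure D2:**
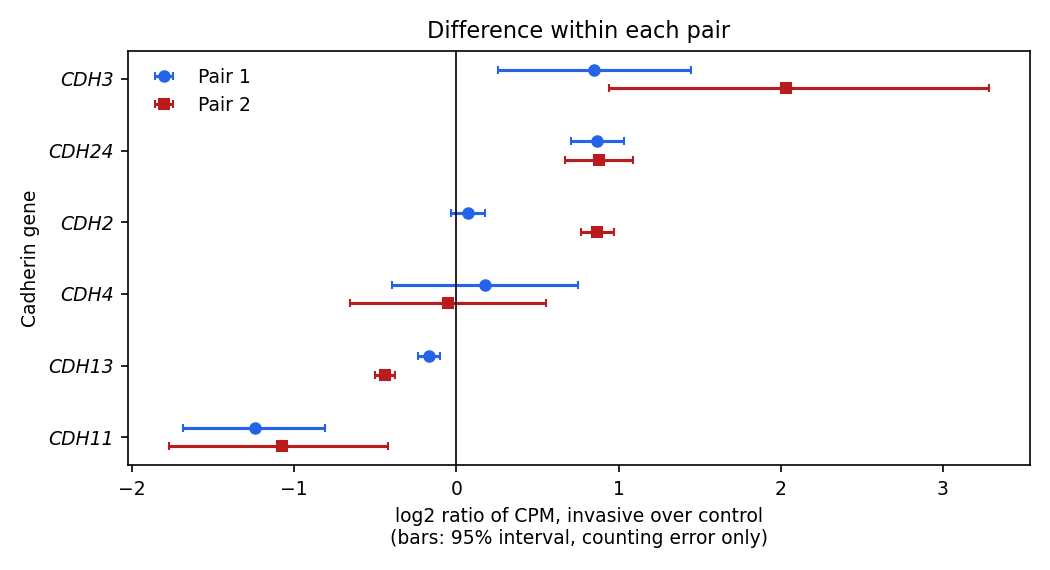
Ratio of invasive to control CPM on a log2 axis for the 6 tested cadherins, with a point per pair and 95% exact binomial intervals that cover counting error only. The pairs coincide for CDH24 and CDH11, lie apart for CDH2 and CDH13, and straddle 0 for CDH4.

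To compare levels between genes, CPM was divided by the summed exon length in kb. The order by mean over the 4 libraries was CDH13 (23.2 CPM per kb), CDH2 (20.6), CDH24 (8.98), CDH4 (0.445), CDH3 (0.377), CDH11 (0.365), CDH10 (0.0604) and CDH1 (0.0338). CDH13 (19.2 to 29.8 CPM per kb) and CDH2 (16.4 to 29.9) overlapped, while CDH24 (5.25 to 13.6) lay below every CDH2 value. CDH4, CDH3 and CDH11 overlapped one another, and so did CDH10 and CDH1. The place of CDH11 depends on the length used: its summed exons span 13.381 kb and its longest coding transcript 6.874 kb. Most of the per-length RNA of these 10 genes thus came from CDH13, CDH2 and CDH24.

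The share of each gene in the summed per-length level of the 10 showed how their balance differed between populations. CDH13 made up 44.8% in control 1 against 36.4% in invasive 1, and 57.0% in control 2 against 35.1% in invasive 2, lower in both invasive populations. CDH24 made up 15.4%, 25.7%, 10.0% and 15.4% in the same order, above its own control in each pair. CDH2 made up 36.5% and 35.1% in pair 1, and 31.2% in control 2 against 47.7% in invasive 2. The level of CDH2 over CDH13 was 0.814 in control 1, 0.962 for its invasive population, 0.548 in control 2 and 1.36 for invasive 2. N-cadherin RNA thus exceeded T-cadherin RNA per length in invasive 2 alone. With the longest coding transcript as the length, an alternative chosen after seeing the data, these ratios were 0.669, 0.791, 0.451 and 1.12, in the same order. The level of CDH24 over CDH11 within a library was 10.7 for control 1, 46.1 for invasive 1, 16.4 for control 2 and 63.8 for invasive 2. These 4 values depend on the lengths used and would be lower with the longest coding transcript of CDH11. Within each pair the ratio of CDH24 to CDH11 was about 4 times as high in the invasive library (4.31 and 3.88), without use of the library totals. It combines the opposite differences of CDH24 and CDH11 given above, so it is no separate support for either. The sum over the 10 genes was 48.2, 52.8, 52.4 and 62.7 CPM per kb, with the higher control just below the lower invasive library. Without division by length it was 372, 370, 443 and 438 CPM in the same order, slightly lower in the invasive library of each pair. The direction of the summed level thus depended on the division by length.

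**Figure D3:**
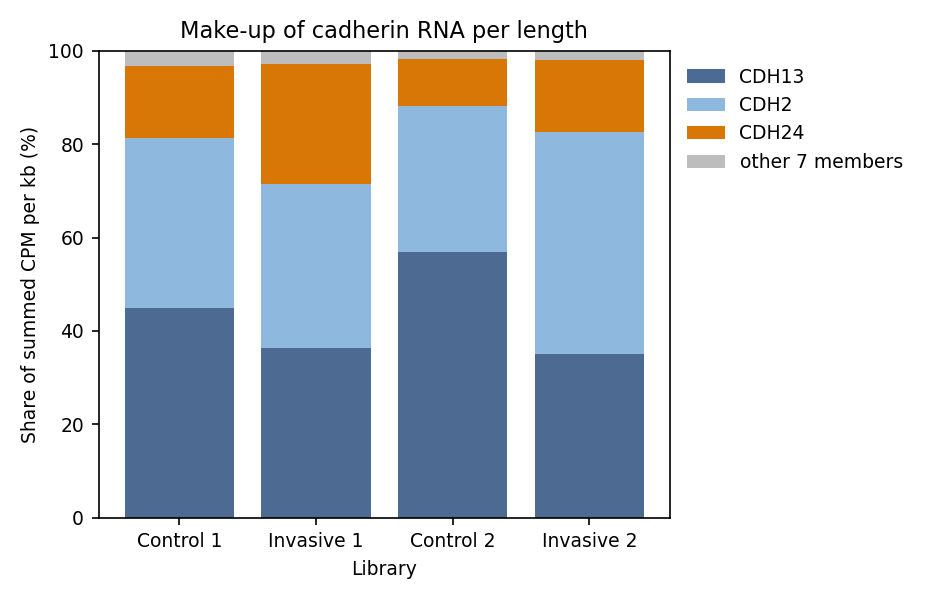
Share of each cadherin in the summed CPM per kb of the 10 genes, as stacked bars from 0 to 100% with a bar per library. CDH13 takes 44.8% and 57.0% in controls 1 and 2 against 36.4% and 35.1% in invasive 1 and 2, and the 7 other members together form a thin top band.

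Genes with a profile like that of a member were sought among 9327 protein-coding genes, by the root mean square distance of centred log2 CPM over the 4 libraries. For CDH13, the member of highest CPM, the nearest were CSGALNACT2 (distance 0.010), DNTTIP2 (0.019) and VPS13A (0.021). With 4 points many genes come this close, and 189 lay within 0.1 of CDH13. For CDH24, the member of smallest p, the nearest were HMCN1 (0.037), TENM4 (0.063) and BAI2 (0.065), and 11 genes lay within 0.1. HMCN1 had 45.1, 82.8, 31.0 and 61.2 CPM in control 1, invasive 1, control 2 and invasive 2. All distances rest on the same 4 libraries and totals.

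The abundant catenins, which bind cadherin tails directly or, for alpha catenin, through beta catenin, had log2 fold changes from −0.21 to 0.17. Alpha catenin (CTNNA1) had 411, 432, 462 and 480 CPM in control 1, invasive 1, control 2 and invasive 2, a log2 fold change of 0.05 ± 0.10. Beta catenin (CTNNB1), which also carries Wnt signals, had 409, 399, 409 and 322 CPM (−0.21 ± 0.11). The p120 catenin (CTNND1), which holds cadherins at the membrane, had 207, 216, 188 and 234 CPM (0.17 ± 0.11). Adjusted p-values of these catenins were 0.377 to 0.840. Plakoglobin (JUP) had 2 to 4 counts and was not tested. Of 9 catenins and junction linkers tested, edgeR called 0 higher and 0 lower, and DESeq2 called 0. At an unadjusted p under 0.05 there was 1, lower, beside 9.82% of all genes higher and 8.41% lower. That gene was MLLT4 (afadin), which ties nectins to actin, at −0.30 ± 0.10 (adjusted p = 0.218). The list's median log2 fold change was 0.01, and that of all genes tested was also 0.01.

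Enzymes that cut or turn over cadherins gave a median of 0.05 over 12 tested, of which edgeR and DESeq2 called 0. At an unadjusted p under 0.05 there was 1, higher, beside 9.82% of all genes higher and 8.41% lower. It was ADAM10, the protease that sheds cadherin ectodomains. ADAM10 had 207 and 215 CPM in controls 1 and 2 against 254 and 259 in invasive 1 and 2, a log2 fold change of 0.27 ± 0.10 (adjusted p = 0.230). Nectins and zonula proteins had a median of −0.09 over 5 tested, 0 at an unadjusted p under 0.05 and 0 called by edgeR or DESeq2. The smallest p among them was that of PVRL1 (nectin 1), at 0.35 ± 0.27 (adjusted p = 0.528).

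Repressors of CDH1 transcription were expressed in all 4 libraries. Of 6 tested, edgeR and DESeq2 called 0. At an unadjusted p under 0.05, 2 were higher and 1 lower, beside 9.82% and 8.41% of all genes. ZEB2 had 88.7 and 126 CPM in controls 1 and 2 and 76.4 and 75.6 in invasive 1 and 2, a log2 fold change of −0.49 ± 0.13 (adjusted p = 0.158). SNAI2 went the other way, from 81.9 and 101 CPM in the controls to 114 and 121 in the invasive populations (0.35 ± 0.10, adjusted p = 0.164). TWIST1 had 10.5 and 8.68 CPM in controls 1 and 2 against 14.5 and 12.1 in invasive 1 and 2 (0.46 ± 0.17, adjusted p = 0.240). Members of this list thus had values in both directions.

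**Figure D4:**
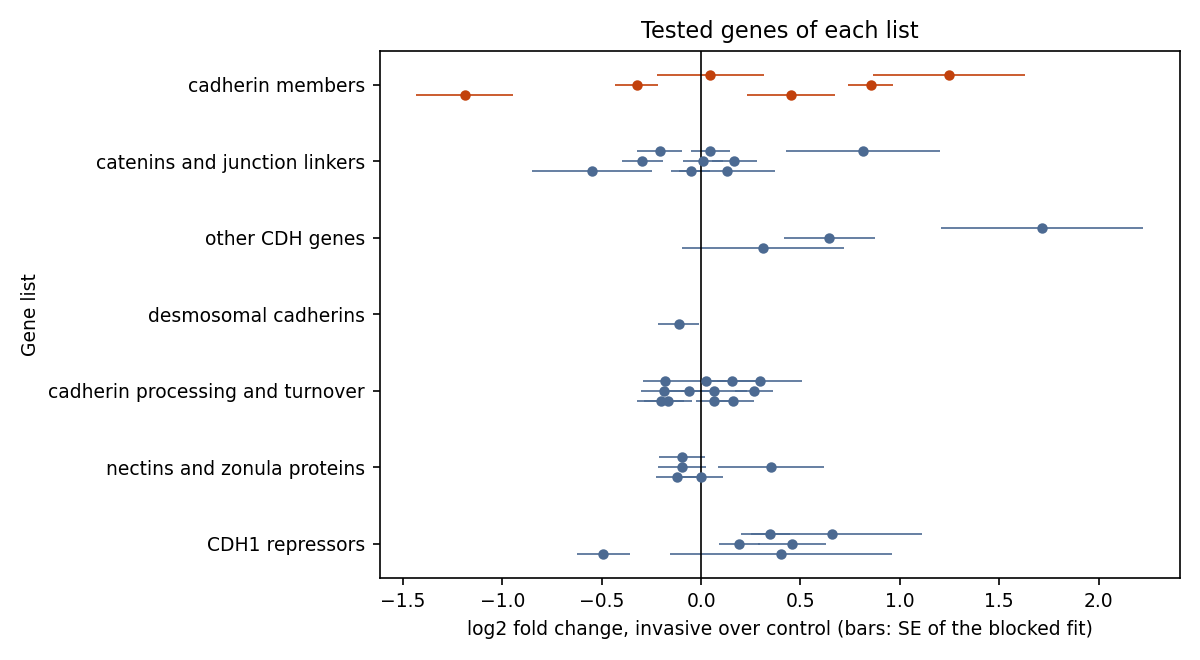
Log2 fold changes (invasive over control, edgeR fit with the pair as a block) of the tested genes of each list, with bars of 1 SE and a row per list. Cadherins spread from −1.19 to 1.25, the catenins and linkers from −0.55 to 0.82, and the processing enzymes from −0.20 to 0.29.

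Of 10 other genes named CDH that were listed in all 4 libraries, CDH8 and CDH16 had 0 counts throughout and 3 passed the filter on low counts. Of these 3, edgeR and DESeq2 called 0. At an unadjusted p under 0.05 there were 2, both higher, beside 9.82% of all genes higher and 8.41% lower. CDH18, a brain type II cadherin, had 8.14 and 10.7 CPM in the control and invasive population of pair 1, and 4.53 and 8.89 CPM in those of pair 2 (0.65 ± 0.23, adjusted p = 0.225). CDH23, a cadherin of hair-cell tip links, had 8, 40, 10 and 16 counts in the same order (1.71 ± 0.51, adjusted p = 0.177). CDH7, a type II cadherin of neural crest and brain, had 136, 92, 39 and 80 counts, lower than its control in pair 1 and higher in pair 2. CDH5, the endothelial VE-cadherin, had 4, 14, 0 and 3 counts. Of the desmosomal cadherins, DSG2 alone was tested, with 840 to 1306 counts (−0.11 ± 0.10, adjusted p = 0.591), and the other 6 had at most 4 counts in a library.

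Markers of other cell types were examined because cadherins differ between cell types. AQP4 (astrocytes), MOG (oligodendrocytes), CLDN5 (endothelium) and P2RY12 (microglia) had 0 counts in every library. Other genes of the same lists were detected: SLC1A3 (astrocytes) had 297 to 594 counts, CSF1R (microglia) 140 to 379, TEK (endothelium) 9 to 42 and MBP (oligodendrocytes) 3 to 19. The neuron gene SNAP25 had 364 to 622. The summed level of 4 pericyte and fibroblast markers was 39.0 and 36.2 CPM in controls 1 and 2 and 60.5 and 62.5 in invasive 1 and 2. LUM, a matrix proteoglycan, made up most of that difference and rose (1.90 ± 0.20, adjusted p = 0.0322), while PDGFRB, RGS5 and DCN of that list did not pass. Summed, 4 epithelial markers had 5.00 and 3.76 CPM in controls 1 and 2, and 6.01 and 5.06 in invasive 1 and 2. Control 1 and invasive 2 nearly coincided, and of the 2 tested genes of that list 0 were called. Oligodendrocyte markers summed to 1.12 and 0.583 CPM in controls 1 and 2 against 0.323 and 0.217 in invasive 1 and 2. Neuron, astrocyte, endothelial and microglial sums overlapped between the groups. The part of such cells in the cadherin differences was not tested.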

How the data were processed

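Polyadenylated RNA was measured in 4 libraries, 1 per population. The authors deposited raw whole-number read counts per Ensembl gene, per the file headers, and normalized values rounded to whole numbers, a score whose method the sources used here do not state. The submitters' processing notes name the build GRCh38 and, among other tools, HTSeq, DESeq2 and TopHat2 2.0.12, with no roles. The scores entered 1 alternative only.

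CPM used each library's total count. Genes in all 4 files were filtered with filterByExpr (minimum count 10, minimum total 15) and tested two-sided with edgeR's quasi-likelihood F test (edgeR 4.0.16, limma 3.58.1, R 4.3.3), TMM factors and a block for the pair, with p-values adjusted over 14231 genes by Benjamini-Hochberg. The SE is the fold change divided by the square root of F. This leaves 1 residual degree of freedom, so each gene's spread leans on a prior worth 5.45, and p-values measure the spread between these samples, which may be technical. Pairing follows the design text, and same-numbered deviations correlated (r 0.283 across genes). The test was checked on simulated data with a common spread for all genes and no difference between pairs. That check therefore did not cover a pair effect or spreads that differ between genes. DESeq2 1.42.0, RLE factors, no filter, no block and leaving out each library were alternatives. Log2 differences within a pair used a prior count of 2. Exon lengths came from GENCODE 29 (GRCh38), whose coordinates matched the files for all 10 members. PVRL and MLLT4 symbols are those of the files.

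The members and lists were chosen with earlier results of these data known. All 10 members were named. Of the lists, CTNNA1, CTNNB1, CTNND1, JUP, called genes and the gene of smallest p in each were named by rule, and the others were chosen after their values were seen.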

Additional observations from a re-analysis of the deposited data

How the results depend on the processing

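The 6 tested cadherins were recomputed under 8 alternatives each. CDH2, CDH3, CDH11, CDH13 and CDH24 kept their direction in all 8, and CDH4, near 0, did so in 6. When 1 library was left out, the CDH4 log2 fold change ranged from −0.021 to 0.11 (−0.0016 without invasive 1). Fold changes of CDH24 ranged from 0.57 to 1.14, of CDH11 from −1.78 to −0.52 and of CDH3 from 0.47 to 2.46. Those of CDH2 ranged from 0.10 to 0.79 and those of CDH13 from −0.54 to −0.10. Each end of these ranges came from a fit that left out 1 library and had no pair block, so the pairing was lost too. In the alternatives that kept all 4 libraries, CDH24 ranged from 0.83 to 0.85. Over all genes, 39 calls became 2 with no replicate block, 156 with DESeq2, 89 with RLE size factors and 1453 with no filter on low counts. They became 4 to 170 when a library was left out, in fits without the block: 170 without control 1, 27 without invasive 1, 4 without control 2 and 8 without invasive 2. Of the cadherins, 0 were called with no replicate block or without any 1 library, 1 with DESeq2 and 1 with RLE size factors (CDH24 in both), and 5 with no filter (CDH2, CDH3, CDH11, CDH13 and CDH24). The cause of these shifts was not tested. A prior count of 0.5 or the authors' normalized values moved 0 of 21 differences within pairs beyond counting error. CDH3, CDH4 and CDH11 had no normalized value in pair 2, where 10252 genes had one against 32100 in pair 1. With the longest coding transcript as length, CDH2 over CDH13 was 0.669, 0.791, 0.451 and 1.12 in control 1, invasive 1, control 2 and invasive 2. Depth limits CDH1, CDH6, CDH10 and CDH12, which had at most 8 counts in a library.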
